A study of Rattus norvegicus with 16 samples.

Results

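The transcripts of 10 apolipoprotein genes, Apoa1, Apoa2, Apoa4, Apoa5, Apob, Apoc1, Apoc3, Apoe, Apoh and Apom, were followed in rat liver and bone marrow, out of 32623 gene records in the count table. They were taken by name; 9 matched a gene name, and Apoc1 was found as the record named NEWGENE_2134, which the table describes as apolipoprotein C1. The set was chosen by measured values, namely the level of these transcripts in liver after N-nitrosodiethylamine (NDEA) against control liver, so their liver differences between treated and control rats are given as a description, with no test. Bone marrow and the level in control liver against control marrow were not used in the choice and were tested. In that tissue comparison, genes that passed the filter only through liver are described. Other genes of lipoprotein metabolism were tested in the same liver contrast, on lists drawn up with earlier results known. They are therefore no independent test.

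NDEA is a nitrosamine that liver enzymes convert into a DNA-alkylating agent, and the study asked how it acts in liver, its main target organ in rats, and in bone marrow. The animals were female Big Blue rats, which carry a transgenic vector with cII and lacI reporter genes for mutation assays; every group carried it. They arrived at 6 weeks of age, were acclimated for 1 week, and were gavaged daily for 28 days with NDEA at 10 mg/kg/day or, as controls, at 0 mg/kg/day. Tissues were taken 3 days after the last dose, and 3'-end RNA libraries were made from 4 samples of each tissue in each group, 16 in all. The dose groups held 6 rats each, and the labels do not say which rats gave the libraries, whether a rat gave both tissues, or which rats shared a cage. P-values therefore measure the spread between libraries.

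Apolipoproteins are the protein part of lipoprotein particles, which carry cholesterol and triglyceride through blood. ApoB is the structural protein of very low density lipoprotein (VLDL) and, in its shorter edited form, of chylomicrons. ApoA-I and apoA-II are the main proteins of high density lipoprotein (HDL), and the C, E and A-V proteins exchange between particles and govern lipolysis and uptake. Hepatocytes make most of these proteins, while apoE is also made by macrophages.

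Liver libraries held 5000844 to 6863592 counts and marrow libraries 2162182 to 5705705, the shallowest being marrow control 1. Levels are CPM, each gene's share of a library's counts scaled to a common total and corrected by trimmed means; since each transcript is read at its 3' end, a level does not grow with transcript length. Hepatocyte markers summed to 116060 to 144414 CPM in control and 109546 to 129739 CPM in NDEA livers, ranges that overlap. Among the 7 matched hepatocyte markers, Ttr and Serpina1 were called higher and Alb and Tat lower after NDEA in the liver fit (limma-voom, adjusted p under 0.05). Kupffer cell and macrophage markers summed to 817 to 926 and 836 to 998 CPM, with Marco called higher and Vsig4 lower of 12 tested. Cholangiocyte markers were higher in every NDEA liver, 24.0 to 40.5 CPM against 6.64 to 16.8 CPM, with 0 of 2 tested called and Krt19 at 0 in all 8. Their part in the apolipoprotein differences was not tested. In bulk tissue, fewer cells of a type and less RNA per cell cannot be told apart.

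Apoa1 stood higher in NDEA livers and the other 9 stood lower, from 0.848-fold for Apob to 0.410-fold for Apoc1. For 8 of the 10 the 4 control and 4 NDEA livers did not overlap, 1 higher and 7 lower; among all 9668 genes tested in liver, 6.61% were called at an adjusted p under 0.05, 12.5% had groups that did not overlap, and 5.99% did so with NDEA lower. These shares stand as background only and nothing is read from them, since this contrast chose the genes. The median log2 difference was -0.56 over the 10 genes and 0.01 over all genes tested. Scaling by library totals alone moved the median of all genes to 0.12 and left each of the 10 directions as they were.

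**Figure D1:**
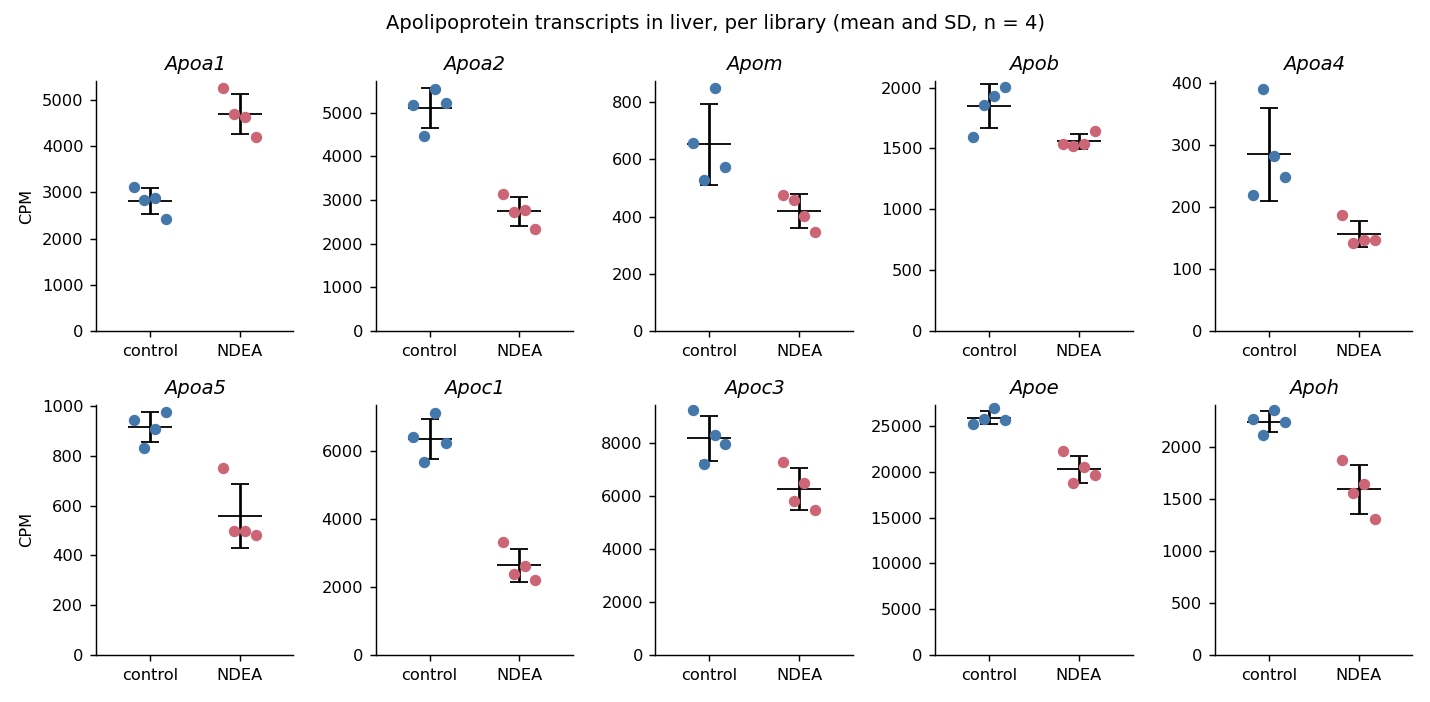
Level of each of the 10 apolipoprotein transcripts in liver, in CPM on an axis from 0, for 4 control (blue) and 4 NDEA (red) libraries in replicate order; black bars give the mean and SD. Apoa1 is higher in all 4 NDEA libraries, and control and NDEA points overlap only for Apob and Apoc3.

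Among the HDL proteins, Apoa1 (ENSRNOG00000045679), which encodes the main protein of HDL and the activator of lecithin-cholesterol acyltransferase, measured 3111, 2835, 2888 and 2431 CPM in control livers 1 to 4. In NDEA livers 1 to 4 it measured 5268, 4700, 4636 and 4197 CPM. Every NDEA liver was above every control, and the lowest NDEA value was well clear of the highest control. The means were 2816 ± 283 and 4700 ± 440 CPM (SD, n = 4), a log2 difference of 0.74 (SE 0.09), or 1.67-fold. By level, Apoa1 was the 42nd gene of control liver and the 21st of NDEA liver.

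Apoa2 (ENSRNOG00000003500), which encodes the second HDL protein, went the other way. It measured 5181, 4472, 5550 and 5223 CPM in control livers 1 to 4 and 3147, 2735, 2769 and 2332 CPM in NDEA livers 1 to 4. No NDEA liver reached the lowest control. The means were 5107 ± 454 and 2746 ± 333 CPM (SD, n = 4), a log2 difference of -0.90 (SE 0.09). Apoa2 therefore held 0.536 of its control level.

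The order of these genes reversed: Apoa2 was the more abundant in each control liver and Apoa1 in each NDEA liver. Within a library, the ratio of Apoa1 to Apoa2 counts was 0.600, 0.634, 0.520 and 0.465 in the controls. It was 1.67, 1.72, 1.67 and 1.80 in the NDEA livers. Such a ratio needs no scaling between libraries. Its mean was 0.555 ± 0.0764 in controls and 1.72 ± 0.0591 after NDEA (SD, n = 4), 3.09 times as high. Leaving out any 1 library kept the control mean between 0.529 and 0.585 and the NDEA mean between 1.69 and 1.73.

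**Figure D2:**
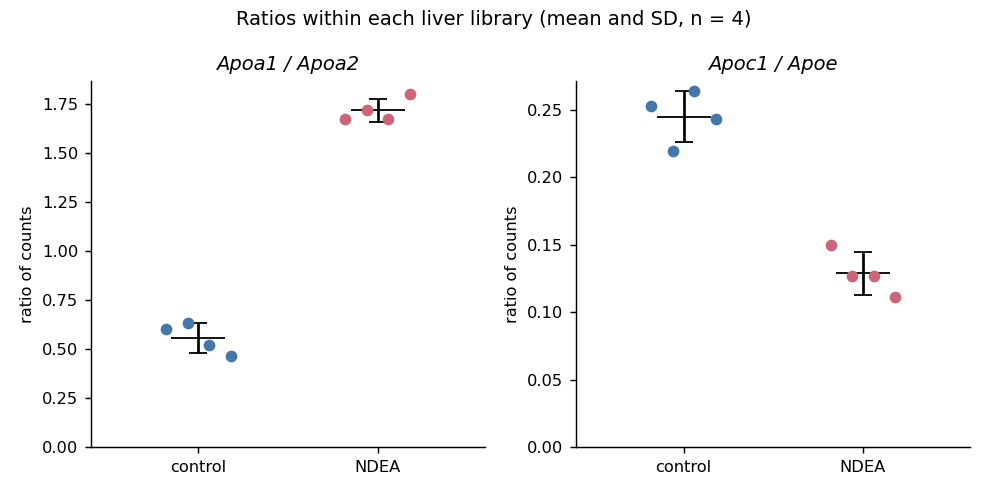
Ratio of Apoa1 to Apoa2 counts and of Apoc1 to Apoe counts within each of 4 control and 4 NDEA liver libraries, on axes from 0; black bars give the mean and SD. The Apoa1 to Apoa2 ratio lies below 1 in every control and above 1 in every NDEA liver, and the Apoc1 to Apoe ratio is lower in every NDEA liver.

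Apom (ENSRNOG00000000850), which encodes the lipocalin that carries sphingosine-1-phosphate on HDL, measured 657, 529, 848 and 572 CPM in the controls and 474, 459, 401 and 346 CPM in the NDEA livers. The groups did not overlap, although control 3 stood above the other controls. The log2 difference was -0.63 (SE 0.13), from 651 ± 141 to 420 ± 58.6 CPM (SD, n = 4).

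Apob (ENSRNOG00000005542), the structural protein of VLDL, had the smallest liver difference of the 10. Its controls measured 1591, 1860, 1933 and 2003 CPM and its NDEA livers 1533, 1518, 1533 and 1645 CPM. NDEA liver 4 lay above control 1, so the groups overlapped, and the log2 difference was -0.24 (SE 0.09). On library totals alone that difference was -0.12.

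Apoa4 (ENSRNOG00000055909), which in rats is made in liver as well as intestine and joins chylomicrons and HDL, measured 220, 390, 282 and 248 CPM in controls and 188, 142, 148 and 147 CPM in NDEA livers. Control 2 was the highest, and NDEA liver 1 stood above the other treated livers, but the groups did not overlap. The log2 difference was -0.84 (SE 0.16). Enterocyte markers were near 0 in all 8 livers, summing to at most 7.45 CPM, with Vil1, Alpi and Fabp6 at 0.

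Apoa5 (ENSRNOG00000018436), a liver protein that promotes triglyceride lipolysis, measured 945, 833, 906 and 977 CPM in controls and 750, 499, 496 and 483 CPM in NDEA livers. NDEA liver 1 lay between the controls and the other 3 NDEA livers. The log2 difference was -0.74 (SE 0.12), and -0.89 without NDEA liver 1.

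Apoc1 (ENSRNOG00000018426), whose product inhibits lipoprotein uptake and cholesteryl ester transfer, showed the largest log2 difference of the 10. Controls measured 6405, 5675, 7113 and 6245 CPM and NDEA livers 3337, 2395, 2603 and 2191 CPM. Even the highest NDEA liver was far below the lowest control. The means were 6360 ± 592 and 2632 ± 500 CPM (SD, n = 4), a log2 difference of -1.28 (SE 0.10). Apoc1 moved from the 20th to the 35th most abundant gene of the liver.

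Apoc3 (ENSRNOG00000047503), whose product inhibits lipoprotein lipase, was the 13th most abundant gene of control liver and the 17th of NDEA liver. It measured 9236, 7174, 8274 and 7957 CPM in controls and 7273, 5815, 6483 and 5463 CPM in NDEA livers. NDEA liver 1 lay above control 2, so the groups overlapped. The log2 difference was -0.39 (SE 0.09), or 0.766-fold.

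Apoe (ENSRNOG00000018454), the ligand through which remnant particles bind receptors on hepatocytes, was the most abundant of the 10. It measured 25298, 25807, 26950 and 25645 CPM in controls and 22276, 18837, 20512 and 19652 CPM in NDEA livers. The groups did not overlap, and the controls were the tightest of any of the 10 genes, with a coefficient of variation of 2.76%. The log2 difference was -0.35 (SE 0.06), and -0.24 on library totals alone.

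Apoh (ENSRNOG00000003566), which encodes beta-2-glycoprotein I, a phospholipid-binding plasma protein, measured 2269, 2112, 2353 and 2238 CPM in controls and 1871, 1555, 1645 and 1302 CPM in NDEA livers. No NDEA liver reached a control, and the log2 difference was -0.50 (SE 0.10).

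The 10 genes together took 5.21% ± 0.220 of all liver counts in controls and 4.24% ± 0.258 after NDEA (SD, n = 4). The ranges, 4.98% to 5.51% and 4.02% to 4.59%, did not overlap. Apoe made up 47.8% of the counts of the 10 in control and 49.7% in NDEA livers. Within the NDEA group, liver 1 was the highest for 9 of the 10 genes, Apob being the exception, and liver 4 the lowest for 7. NDEA liver 1 also had the highest hepatocyte marker sum of its group, 129739 CPM, and liver 4 the lowest, 109546 CPM. Apoa1 shared this order with the genes that stood lower, except Apob, Apoa4 and Apoe, which were lowest in NDEA liver 2. Among the controls, liver 1 had the highest marker sum, 144414 CPM, but was the highest for 2 of the 10 genes and the lowest for 3. Control 3, at 134520 CPM, was the highest for 5, and control 2, with the lowest sum of 116060 CPM, was the lowest for 6. Whether the marker sum bears on these levels was not tested.

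The 10 genes lie at 6 places in the genome, given as positions in the authors' deposited table, whose build is not named. Apoa1, Apoc3, Apoa4 and Apoa5 lie on chromosome 8 at 50525091, 50529318, 50537009 and 50559126, within 34.0 kb. Apoc1 and Apoe lie on chromosome 1 at 80606638 and 80612895, beside Apoc2 and Apoc4, within 23.9 kb. Apoa2 lies on chromosome 13 at 89597138, Apob on chromosome 6 at 33176778, Apoh on chromosome 10 at 96639924 and Apom on chromosome 20 at 5120474.

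Neighbouring genes did not share 1 size or direction. In the chromosome 8 cluster Apoa1 was the single gene with a positive difference, and Apoc3, 4.23 kb away, stood lower. The ratio of Apoa1 to Apoc3 counts was 0.347 ± 0.0372 in control and 0.754 ± 0.0430 in NDEA livers (SD, n = 4), with no overlap. Apoa4 and Apoa5, 22.1 kb apart, kept nearly the same ratio, 0.316 ± 0.107 and 0.284 ± 0.0240. In the chromosome 1 cluster, Apoc1 stood much lower than Apoe, 6.26 kb away: the ratio of Apoc1 to Apoe counts was 0.245 ± 0.0188 and 0.129 ± 0.0158. Apoc1 also lost ground to Apoc2, from a ratio of 1.95 ± 0.192 to 1.13 ± 0.0828.

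**Figure D3:**
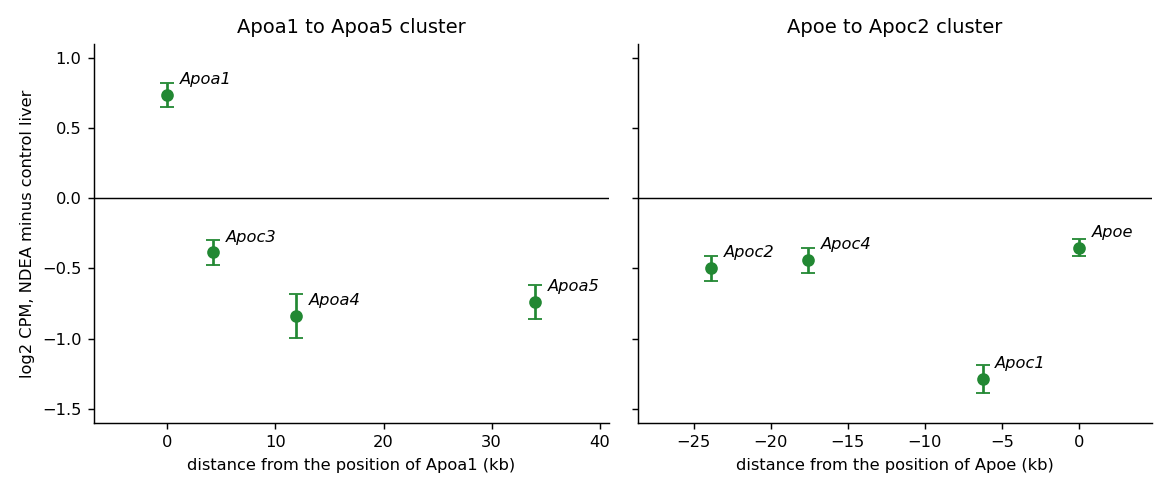
Log2 difference of NDEA minus control liver (points, with SE of the limma-voom fit) against distance in kb from Apoa1 in its cluster and from Apoe in its cluster. Apoa1 alone lies above 0, and Apoc1 lies lowest at -1.28 beside Apoe at -0.35.

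Of 21 other genes within 500 kb of the 10, taking at most 2 on each side, Apoc2 and Apoc4 were called lower and Fcer1g and Pcp4l1 higher. Pcp4l1 averaged 1.27 CPM in control and 21.7 CPM in NDEA livers. Fcer1g, the Fc receptor gamma chain of myeloid cells, lies 4.76 kb from Apoa2 and rose by a log2 difference of 0.67 (SE 0.16, limma-voom adjusted p = 0.00837). Sik3 and Pafah1b2 on the far side of Apoa1 had log2 differences of -0.07 (SE 0.27) and 0.29 (SE 0.30), and Zpr1 beside Apoa5 had 0.01 (SE 0.23); none of the 3 passed the test.

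Promoter windows, from 250 bases before to 50 after a listed start, were found in RefSeq (build GRCr8) for 6 of the 10: Apoa4, Apoa5, Apoc1, Apoe, Apoh and Apom. Those of both neighbouring pairs are printed, the first listed start of each, because Apoa4 and Apoa5 had like liver differences and Apoc1 and Apoe did not. They lie at chr8:55435529-55435828 (plus strand) for Apoa4, chr8:55457621-55457920 (plus strand) for Apoa5, chr1:88478256-88478555 (minus strand) for Apoc1 and chr1:88485767-88486066 (minus strand) for Apoe, and run 5′ to 3′ on the gene's strand. Capitals mark every match, on either strand, to TATAAA (the TATA box), CCAAT (the CCAAT box), AGGTCA (a nuclear receptor half-site) or GTTAAT (a half-site of HNF1).
Apoa4: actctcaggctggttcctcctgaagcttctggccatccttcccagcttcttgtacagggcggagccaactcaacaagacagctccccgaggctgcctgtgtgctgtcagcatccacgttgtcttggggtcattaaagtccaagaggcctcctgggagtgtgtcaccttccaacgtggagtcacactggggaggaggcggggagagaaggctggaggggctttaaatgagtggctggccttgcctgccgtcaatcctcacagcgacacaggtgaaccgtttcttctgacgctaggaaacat
Apoa5: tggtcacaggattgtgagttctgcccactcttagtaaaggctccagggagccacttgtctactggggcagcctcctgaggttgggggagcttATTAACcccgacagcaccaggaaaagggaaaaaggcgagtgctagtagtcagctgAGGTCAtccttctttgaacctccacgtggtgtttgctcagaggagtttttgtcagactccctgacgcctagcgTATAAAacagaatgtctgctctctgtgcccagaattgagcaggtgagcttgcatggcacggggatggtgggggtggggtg
Apoc1: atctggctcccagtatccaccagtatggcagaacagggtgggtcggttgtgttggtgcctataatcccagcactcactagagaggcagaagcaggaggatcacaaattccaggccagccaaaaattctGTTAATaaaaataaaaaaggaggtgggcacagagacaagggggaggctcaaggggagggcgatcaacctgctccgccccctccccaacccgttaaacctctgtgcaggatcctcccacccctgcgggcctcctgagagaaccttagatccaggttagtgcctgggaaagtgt
Apoe: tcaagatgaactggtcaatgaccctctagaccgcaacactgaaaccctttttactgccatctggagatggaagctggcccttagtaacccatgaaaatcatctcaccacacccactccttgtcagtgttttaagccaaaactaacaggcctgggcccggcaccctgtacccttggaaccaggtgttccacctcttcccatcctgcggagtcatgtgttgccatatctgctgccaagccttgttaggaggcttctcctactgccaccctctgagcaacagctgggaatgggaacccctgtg

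The Apoa5 window held TATAAA 30 bases before the start, AGGTCA 103 bases before it and GTTAAT, on the other strand, 158 bases before it. In the Apoc1 window GTTAAT began 122 bases before the start, and the Apoa4 and Apoe windows held none of the 4 motifs. The windows of both other listed Apoe starts held CCAAT. So did the window of the second listed Apoc1 start, on the other strand, 12 bases before that start. Over all 33469 rat promoter windows of this length, 14.2% held TATAAA, 37.5% CCAAT, 16.2% AGGTCA and 7.45% GTTAAT. The matches describe letters and do not show binding.

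To set the 10 in the pathway, 75 of 78 other lipoprotein genes on 6 lists were matched and 66 were tested in liver. After NDEA 1 rose and 10 fell (limma-voom, adjusted p under 0.05), against 2.87% higher and 3.74% lower among all genes tested. The lists' median log2 difference was -0.21. The lists, too, were drawn up with earlier results known.

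Of the 7 other apolipoproteins tested, Clu rose, and Apoc2, Apoc4 and Apof fell. Clu, or apoJ, a chaperone on HDL, measured 1064 ± 12.5 CPM in control and 1474 ± 61.7 CPM in NDEA livers (SD, n = 4; log2 0.47, SE 0.08, limma-voom adjusted p = 6.37e-04). It was the gene of these lists that shared the direction of Apoa1. Apoc2, the activator of lipoprotein lipase, measured 3276 ± 311 and 2324 ± 276 CPM (log2 -0.50, SE 0.09, limma-voom adjusted p = 8.00e-04). Apof and Apoc4 had log2 differences of -0.56 (SE 0.12) and -0.44 (SE 0.09).

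Of 14 genes of VLDL assembly tested, Dgat2 and Mttp fell. Dgat2, an enzyme that makes the triglyceride loaded onto apoB, measured 935 ± 80.2 and 441 ± 59.8 CPM (SD, n = 4; log2 -1.09, SE 0.11, limma-voom adjusted p = 2.59e-07). Mttp, the protein that transfers lipid onto nascent apoB, measured 143 ± 10.9 and 105 ± 3.69 CPM (log2 -0.45, SE 0.13, limma-voom adjusted p = 0.0441). The Mttp call was lost on library totals alone (adjusted p = 0.153), with median-of-ratios scaling, with no filter and when any single library other than control 4 was left out.

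Of 10 genes tested that remodel lipoproteins in plasma, Pon1, Lipc and Lcat fell. Pon1, the HDL-bound paraoxonase, measured 1441 ± 125 and 946 ± 37.3 CPM (SD, n = 4; log2 -0.60, SE 0.09, limma-voom adjusted p = 8.96e-05). Lipc, or hepatic lipase, had a log2 difference of -0.55 (SE 0.11, limma-voom adjusted p = 0.00322). Lcat, the enzyme that apoA-I activates, had a log2 difference of -0.45 (SE 0.11, limma-voom adjusted p = 0.0119), a call lost on library totals alone (adjusted p = 0.0597).

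Of 8 receptor and uptake genes tested, Lrp1 fell, a large endocytic receptor that takes up apoE-bearing remnant particles. Lrp1 measured 295 ± 42.6 CPM in control and 156 ± 26.9 CPM in NDEA livers (SD, n = 4; log2 -0.91, SE 0.14, limma-voom adjusted p = 1.33e-04). The other 7 did not pass the test.

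None of the 4 lipid efflux genes, Abca1, Abcg1, Abcg5 and Abcg8, passed the limma-voom test after adjustment. Abcg1, which passes cholesterol to HDL, had a log2 difference of 0.87 (SE 0.39), and Abcg5 and Abcg8, the paired transporter of sterols into bile, -0.62 (SE 0.28) and -0.78 (SE 0.33); these 3 had an unadjusted p under 0.05. Of 26 regulators of apolipoprotein genes 23 were tested, and Ppara, Rxra and Foxa1 had too few counts in liver to be tested. Of the 23, Hnf4a fell, the nuclear receptor that maintains hepatocyte gene expression. Hnf4a measured 349 ± 55.4 CPM in control and 207 ± 19.9 CPM in NDEA livers (SD, n = 4; log2 -0.75, SE 0.13, limma-voom adjusted p = 4.29e-04). The groups did not overlap for any of the 11 genes called, against 12.5% of all genes tested in liver. The calls rest on the same libraries, so this adds no support to them.

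**Figure D4:**
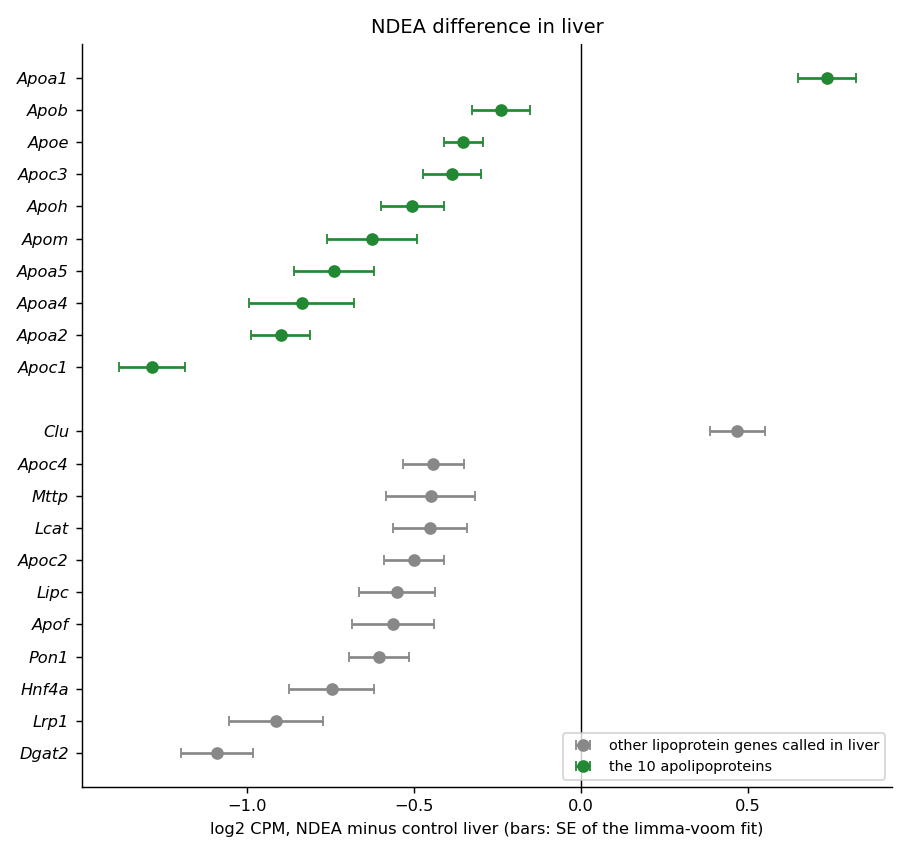
Log2 difference of NDEA minus control liver with the SE of the limma-voom fit, for the 10 apolipoproteins (green) and the 11 other lipoprotein genes called in liver (grey). Apoa1 at 0.74 and Clu at 0.47 lie to the right of 0, and all others shown lie to the left.

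Likeness of pattern was measured over the 8 liver libraries as the root mean square distance between centred log2 CPM profiles, against 3020 well-measured genes. The 3 nearest to Apoa1 were Fabp5 (distance 0.0957), Hist1h2bcl1 (0.107) and Tmem37 (0.122), where the median gene was at 0.483. Fabp5, a fatty acid binding protein, averaged 55.5 CPM in control and 92.1 CPM in NDEA livers. The 3 nearest to Apoa2 were Cyp2d1 (0.0849), Acsl1 (0.0866) and Lrp1 (0.104), where the median gene was at 0.493. Acsl1 activates long-chain fatty acids, and Cyp2d1 is a liver cytochrome P450. Among the 10, Apoa5 lay at 0.152 from Apoa2, while Apoa1 lay at 0.83. Profiles were centred over control and NDEA livers together, so the distances include the liver difference by which the set was chosen. Fabp5, for example, had a log2 difference of 0.73 and Acsl1 of -0.89. The distances describe pattern alone and add no support to the opposite changes of Apoa1 and Apoa2.

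In bone marrow, Apoe was the main apolipoprotein transcript. It made up 95.2% of the counts of the 10 genes in control and 96.5% in NDEA marrow. The 10 together took 0.0307% ± 0.00677 of control and 0.0344% ± 0.00471 of NDEA marrow counts (SD, n = 4). Apoe, Apom, Apoc3, Apoa1 and Apoc1 passed the filter on low counts. Apob, Apoa4 and Apoa5 were at 0 counts in all 8 marrow libraries, Apoa2 had 1 count in marrow control 4, and Apoh had 4 counts in NDEA marrow 3.

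None of the 5 genes tested was called after NDEA in marrow, and control and NDEA libraries overlapped for all 5. The background was 0% of 9239 genes called by limma-voom, 0 genes by limma-trend, and 5.61% with groups that did not overlap; 1336 genes had an unadjusted p under 0.05. Without marrow control 3, 323 genes were called, none of these 5 among them. None of the 5 had an unadjusted p under 0.05. Marrow Apoe measured 185, 346, 370 and 273 CPM in controls and 362, 347, 355 and 280 CPM in NDEA libraries. Control 1, the shallowest, was the lowest, and the other 7 overlapped. The means were 293 ± 83.2 and 336 ± 38.0 CPM (SD, n = 4), a log2 difference of 0.23 (95% interval -0.27 to 0.72, limma-voom adjusted p = 0.661). Without control 1 the estimate was 0.04. The difference between tissues was not tested.

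For the other 4 the marrow counts were few and the intervals wide. Apoc3 had 1, 36, 24 and 56 counts in controls and 6, 19, 10 and 27 in NDEA marrow, with overlapping groups. Its log2 difference was -0.92 (95% interval -2.88 to 1.05, limma-voom adjusted p = 0.651). Apom had 8, 8, 36 and 25 counts in controls and 26, 10, 26 and 26 in NDEA marrow, a log2 difference of 0.13 (SE 0.83). The Apom groups overlapped across most of their range.

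Apoa1 had 6, 1, 9 and 23 counts in controls and 1, 7, 20 and 13 in NDEA marrow, a log2 difference of 0.08 (SE 1.35). Controls 2 and 4, with 1 and 23 counts, had near-equal totals of 5520128 and 5539409 counts. Apoc1 had 11, 12, 0 and 0 counts in controls and 16, 31, 0 and 0 in NDEA marrow. It was present in libraries 1 and 2 of both groups and at 0 in libraries 3 and 4 of both.

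**Figure D5:**
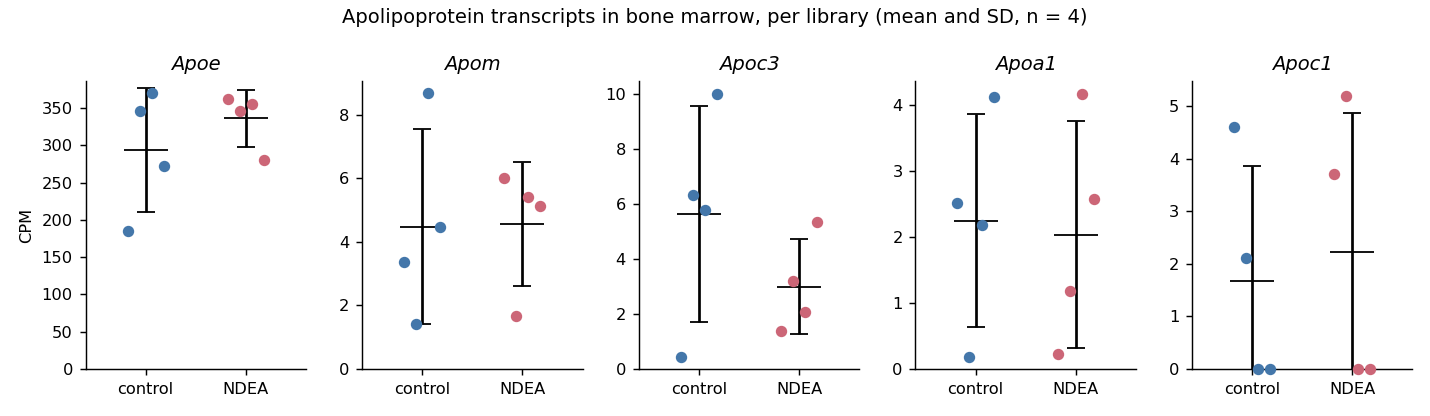
Levels in CPM, on axes from 0, of the 5 apolipoprotein transcripts that passed the filter in bone marrow, for 4 control (blue) and 4 NDEA (red) libraries in replicate order; black bars give the mean and SD. Apoe lies between 185 and 370 CPM, the other 4 at or below 10.0 CPM, and control and NDEA libraries overlap for all 5.

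Against control marrow, control liver held far more of each of these transcripts; of all 10071 genes tested, 66.1% were called in this comparison and 32.8% were higher in liver. Apoe averaged 28031 ± 818 CPM in liver and 265 ± 78.0 CPM in marrow on the scaling of this comparison (SD, n = 4), 108-fold higher (log2 6.75, SE 0.20, limma-voom adjusted p = 2.00e-12). That was the smallest gap of the 5 genes that passed the filter in marrow. Apom was higher in liver by 7.72 (SE 0.56), Apoc3 by 11.00 (SE 0.57), Apoa1 by 11.08 (SE 0.68) and Apoc1 by 13.69 (SE 0.89) on the log2 scale. Single marrow controls moved these sizes but not the direction. Apoa1 was at 10.10 without control 2 and Apoc3 at 10.35 without control 1. Apoc1 was at 14.68, 14.34 and 12.83 without control 1, 2 and 4. The fitted Apoc1 value also depends on the prior count, since Apoc1 was at 0 in 2 of the 4 marrow controls; its mean levels were 6875 CPM in liver and 1.5 CPM in marrow, 4578-fold apart. The other 5 genes had at most 1 count over the 4 marrow controls and passed this comparison's filter through liver alone. Of the 5 with gaps given above, Apoe alone would have met that filter on the 4 marrow controls without liver. Apom, Apoc3, Apoa1 and Apoc1 each fell below its level in at least 1 marrow control, so their gaps are a description. Set against 3 counts over the marrow control group, Apoa4 was at least 2026-fold higher in liver, Apoa5 at least 6504-fold, Apob at least 13129-fold and Apoh at least 15937-fold; these bounds cover counting error only.

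The 7 matched hepatocyte markers summed to 803 to 1602 CPM in control and 1079 to 1753 CPM in NDEA marrow, nearly all of it Tf, the transferrin gene, which averaged 1247 and 1341 CPM. Of the other 6, Ttr, Fgb, Serpina1 and Tat were at 0 in all 8 libraries, and Alb had 2 counts in all. Hpx had 29 counts in marrow control 4, the library with the most Apoa1 and Apoc3 counts, and at most 3 in any other. Over the same 8 libraries Apoe had 12217 counts, Apoc3 179, Apom 165, Apoa1 80 and Apoc1 70. In control liver Alb was 29.7 times as abundant as Apoa1 and 10.2 times as abundant as Apoc3. Macrophage markers were well represented in marrow, summing to 1160 to 1473 CPM in control and 1330 to 1631 CPM in NDEA libraries, with 0 of 10 tested called and Vsig4 and Marco at 0. Macrophages are a known source of apoE and apoC-I. Where the marrow transcripts came from, and which marrow cells held them, was not tested.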

How the data were processed

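Libraries were made with a QuantSeq 3' kit, per the labels' protocols, and STAR and DESeq2 are named, with no version, in the submitters' processing notes; which tool counted reads, and on which build and annotation, is not given in the sources used here. The deposited table holds whole-number counts of reads per gene, which the authors had not normalized; 12 records broken over 2 lines were rejoined, and 0 columns of samples outside the study were found. The members and gene lists were chosen with earlier results of these data known. Each of 3 comparisons was filtered, scaled and fitted alone: a gene needed 15 counts in total and, in at least 4 libraries, a CPM worth 10 counts at median depth, scaling used trimmed means, and limma-voom (limma 3.58.1, R 4.3.3) gave two-sided p-values with Benjamini-Hochberg adjustment over all genes tested, called under 0.05. Voom was used since stray pieces of broken lines left the columns, read plainly, not all counts. The method was tested on simulated data. Named genes were all 10 members, up to 4 called genes per list by absolute log2 difference, the 3 genes most like Apoa1 and Apoa2 in pattern, and tested neighbours within 500 kb. Replicates within a group differed beyond sampling noise in all 24 pairs. Intervals of log2 differences come from the fit and rest on the spread between libraries; floors of 3 counts cover counting error only. The lists leave out a few genes that are not reported here.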

Additional observations from a re-analysis of the deposited data

Results flagged for a closer look

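Over 58 groups of 4 libraries examined, 6 held a library whose gap to the nearest of the others was a large share of the group's range; chance flags about 1 in 20 groups. In NDEA liver 1, Apoa4 measured 188 CPM, where the other 3 NDEA livers ran from 142 to 148 CPM. In the same library Apoa5 measured 750 CPM, against 483 to 499 CPM in the others. In NDEA liver 4, Apob measured 1645 CPM, against 1518 to 1533 CPM in the others. Control liver 2 was low for Lrp1, at 231 CPM against 310 to 321 CPM in the other controls. In marrow, Apoa2 measured 0.179 CPM in control 4, from 1 count. Apoh measured 0.831 CPM in NDEA library 3, from 4 counts. Both genes were at 0 in the other libraries of those groups. A group with counts in a single library is always flagged, so the rate of 1 in 20 does not apply to these marrow groups.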

How the results depend on the processing

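Library totals alone, median-of-ratios scaling, a 5 CPM filter, no filter, limma-trend, a replicate block and leaving out each library were tried. None reversed the direction of any of the 10 liver differences, and 2 of them moved by more than the spread between replicates, Apob to -0.12 and Apoe to -0.24 on library totals alone. The number of genes called in liver was 639, of which 277 higher and 362 lower, and ran from 431 to 732; library totals alone gave 390 higher and 239 lower. Control liver against control marrow gave 5917 to 7408 genes. In marrow, 0 genes were called, but 2 with no filter, and 0 to 323 when 1 library was left out, the 323 without control 3; the cause was not tested. The replicate block gave 289 marrow genes and 732 liver genes. Over all genes tested, same-numbered libraries showed little shared deviation (correlations of -0.005 to 0.062 in marrow and -0.008 to 0.010 in liver). Such correlations cannot exclude a pairing that acts on few genes, so whether the numbers pair the samples is not known. None of the 5 marrow apolipoproteins was called under any of these settings, although the estimates of Apoa1 (-1.03 to 0.73), Apoc1 (-0.67 to 1.30) and Apom (-0.47 to 0.65) changed sign. Few counts and a wide spread between libraries limit the precision of the 4 low marrow transcripts, whose SD of log2 CPM within groups was 0.96 for Apom, 1.39 for Apoc3, 1.68 for Apoa1 and 3.04 for Apoc1, against 0.34 for Apoe.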
